A study of Mus musculus with 4 samples.

Results

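The proteasome is the protease that breaks down proteins marked with ubiquitin. It was described here through 40 genes, those of subunits of its core, its regulatory cap and its alternative activators, with 2 assembly factors of the cap. They were chosen by symbol from the 23996 genes of the authors' deposited table, and each of the 40 symbols matched 1 row. Messenger RNA had been sequenced from follicular helper T (TFH) cells, a kind of CD4 T cell on which germinal centre B cells depend. The cells were taken from mouse spleen by a CD4+CD44+CXCR5+PD-1+ sort, 7 days after the mice were immunized with ovalbumin in alum. All mice carried floxed Etv5 (Etv5f/f), the gene of an ETS family transcription factor: those without Cre are called WT, and those with Cd4-Cre, which acts in T cells from their development in the thymus onward and not in TFH cells alone, are called Etv5 cKO. There were 2 libraries per genotype. Whether these came from separate mice, the age of the mice and the exons that are floxed are not stated.

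The table holds 1 FPKM value (a fragment count corrected for transcript length and library size) per gene and genotype over both libraries, and the authors' Cuffdiff test between them. No value per library could be used, so no level below has a standard deviation, the depth is unknown, and the deposited p-values, which may reflect technical spread, are the only measure of error. The target gene Etv5 stood at 5.24 FPKM in the WT column and at 2.12 FPKM in the cKO column of the authors' deposited table, a called fall (Cuffdiff adjusted p = 0.0181). The sorted cells carried their defining transcripts, with Cd4 at 460 and 470 FPKM, Cxcr5 at 183 and 158 FPKM and Pdcd1 at 173 and 154 FPKM in WT and Etv5 cKO. The sum of the 7 CD4 T and TFH markers was 1750 against 1648 FPKM, with 2 higher, 5 lower and 0 called in the authors' deposited table and a median log2 fold change of -0.14. Transcripts of other cells were also present and differed by genotype. The summed level of 5 erythroid markers was 33.2 FPKM in WT against 125 FPKM in Etv5 cKO, and the authors' deposited table called all 5 of them higher. The sum of 7 myeloid markers was 95.8 and 137 FPKM, with 7 of 7 higher and 1 called, and that of 4 granulocyte markers was 8.27 and 18.3 FPKM, with 4 of 4 higher and 1 called. The sum of 5 CD8 and NK markers was 70.5 and 61.9 FPKM, with 3 of 4 tested higher and 0 called, and that of 4 B cell markers 5.51 and 7.10 FPKM, with 2 of 2 tested higher and 0 called; Cd8a (0.0519 and 0.0800 FPKM) and Ms4a1 (0.204 and 0.469 FPKM) were near 0, while Nkg7 (55.6 and 45.0 FPKM), Klrb1c (10.2 and 10.4 FPKM), Cd8b1 (4.32 and 5.77 FPKM) and Cd79b (4.13 and 4.80 FPKM) were not. The part of these cells in the values below was not tested, and in bulk RNA fewer cells of a type and less RNA per cell cannot be told apart.

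The core of the proteasome is a barrel of stacked rings. The outer rings are made of alpha subunits, which gate the entry, and the inner rings of beta subunits, of which Psmb5, Psmb6 and Psmb7 carry the catalytic sites. Cells of the immune system and cells exposed to interferon gamma also make the catalytic subunits Psmb8, Psmb9 and Psmb10, which take the places of Psmb5, Psmb6 and Psmb7 in newly built particles, the immunoproteasome. The regulatory cap recognizes ubiquitin chains with its base and lid, unfolds the substrate with a ring of ATPases and feeds it into the core, while the PA28 and PA200 caps open the core without ATPases.

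All 40 genes passed the authors' filter for testing, and all 40 were detected in both genotypes. By the authors' deposited table, 38 of the 40 had a higher and 2 a lower value in Etv5 cKO, against 48.9% higher and 51.1% lower among all 11569 tested genes; with quantile normalization of the 2 columns the count was 37. The median log2 fold change was 0.075 for the 40 genes and -0.0033 for all tested genes. Cuffdiff called 0 of the 40 at an adjusted p below 0.05, a threshold that 0.346% of all tested genes passed, and 0 of the 40 were below an unadjusted p of 0.05, where 2.4% of all tested genes lay. The deposited log2 fold changes of the 40 genes ran from -0.026 to 0.19, a percent change of -1.76% to 14.05%, and their unadjusted p-values ran from 0.292 to 0.938. Each of the 40 had an adjusted p of 0.999.

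How small a difference this test could call can be read from other genes. In the level range of the 40 genes, a mean of 10.7 to 305 FPKM, 6527 genes were tested and 17 were called in the authors' deposited table. The smallest called difference there was 0.69 on the log2 scale, and the smallest with an unadjusted p below 0.05 was 0.35. Differences of the size seen in the proteasome genes were therefore not detectable with 2 libraries per genotype, and the absence of a call does not show that the levels were equal. The 40 genes lay close together: the middle 50% of their log2 fold changes spanned 0.046 to 0.094, against -0.065 to 0.066 for the 6527 genes of the same level range. There 49% of genes had a higher value in Etv5 cKO, and the median log2 fold change was -0.0024.

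**Figure D1:**
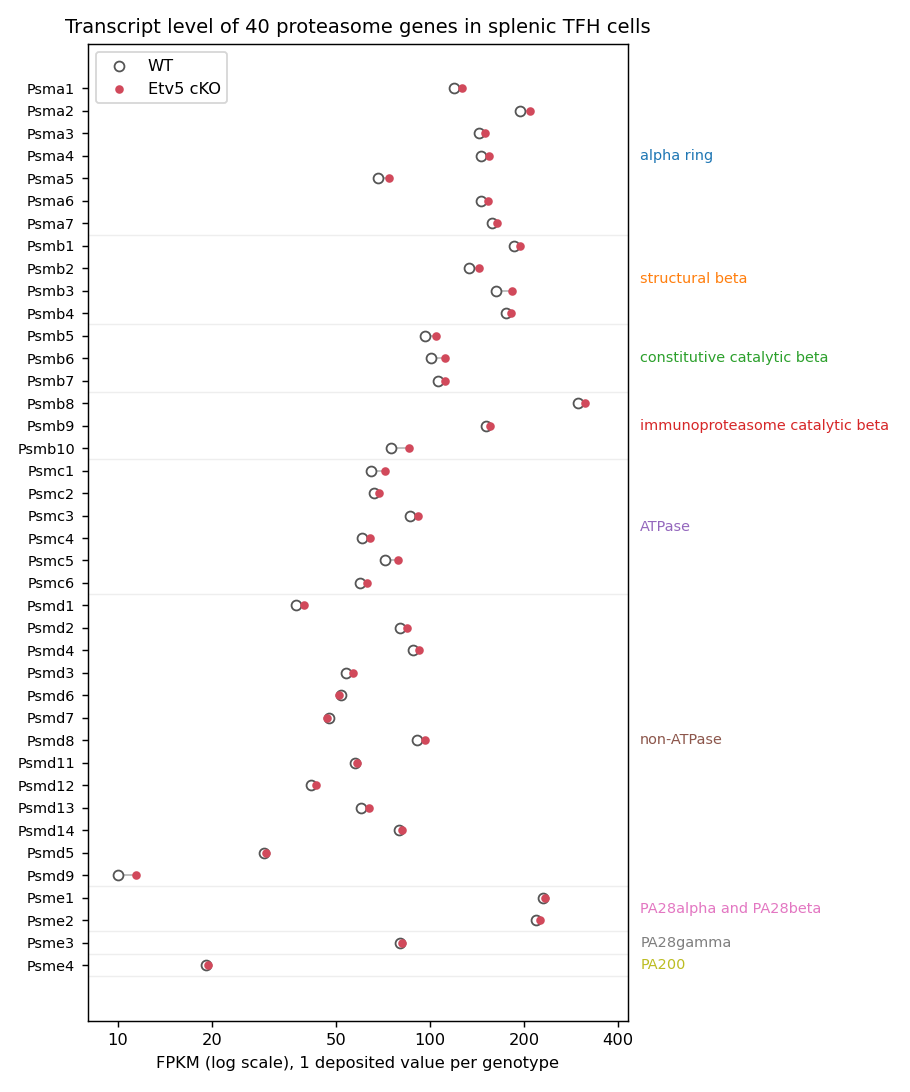
FPKM of the 40 proteasome genes on a log axis, 1 row per gene ordered by place in the particle, with the WT value as an open circle and the Etv5 cKO value as a filled circle. The 2 values of a gene lie close together at every level from Psmd9 (10.02 and 11.4 FPKM) to Psmb8 (298 and 313 FPKM), and none of the 19 cap genes plotted reaches 100 FPKM, which 13 of the 14 constitutive core genes exceed on average.

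Among the 40 genes, levels differed by place in the particle. FPKM is scaled to transcript length but not to other properties in which genes differ, so levels set beside each other between genes are approximate. Of the 40 genes 17 had a mean above 100 FPKM, and these were 6 of the 7 alpha subunits, all 7 constitutive beta subunits, Psmb8, Psmb9 and the activator subunits Psme1 and Psme2. None of the 19 cap genes among the 40 reached that level, the highest being Psmd8 at 90.9 FPKM in WT against 96.4 FPKM in Etv5 cKO. This does not hold for every gene of the cap, since Shfm1, a small lid subunit that is not among the 40, stood at 223 and 242 FPKM. The median level was 144 FPKM in WT against 151 FPKM in Etv5 cKO for the 14 constitutive core genes, and 60.1 and 63.8 FPKM for the 19 cap genes among the 40. Those 19 count in Psmd5 and Psmd9, the 2 lowest of them, which are assembly factors of the base and not parts of the finished particle. Together the 40 genes made up 0.803% of the summed FPKM of all listed genes in WT and 0.828% in Etv5 cKO. Ranked by level, 31 of the 40 held the same rank in both genotypes, 7 moved by 1 place, and the largest move was 3 places, for Psmb10, from rank 24 to rank 21. With no spread between libraries, which neighbours in this order differ beyond error cannot be said.

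In the alpha ring 5 genes lay close together, 1 lay above them and 1 below. Psma1 stood at 119 FPKM in WT against 127 FPKM in Etv5 cKO. Psma3 stood at 144 and 150 FPKM, Psma4 at 145 and 155 FPKM, Psma6 at 145 and 153 FPKM, and Psma7 at 158 and 163 FPKM. Psma2 was the highest at 195 and 208 FPKM. Psma5, at 68.1 and 74.0 FPKM, was the lowest, although each alpha subunit has the same number of copies in the particle. The span from Psma5 to Psma2 was 2.86-fold in WT and 2.81-fold in Etv5 cKO. By the authors' deposited table all 7 had a higher value in Etv5 cKO, at log2 fold changes from 0.049 (Psma7) to 0.12 (Psma5), median 0.089.

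The deposited locus of Psma6 overlaps other genes, and whether its FPKM includes their reads is not stated. The locus, on mm10 chromosome 12, runs over 211834 bases, from 55280814 to 55492647, against 34238 bases for the RefSeq gene on GRCm38. It overlaps the protein-coding genes Ppp2r3c, Prorp and Nfkbia. Its deposited log2 fold change of 0.073 came with a test score of 0.111. The log2 fold change per unit of score, a measure of the error that the authors' test assigned, was 0.656 for Psma6, and between 0.247 and 0.299 for the other 39 genes. The deposited loci of Psma3 and Psme1 were also longer than their RefSeq genes. They overlapped the protein-coding genes Arid4a (Psma3) and Emc9 (Psme1), without such a shift in the score.

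Among the structural beta subunits, which complete the inner ring without a catalytic site, Psmb1 stood at 185 FPKM in WT against 193 FPKM in Etv5 cKO. Psmb2 stood at 133 and 144 FPKM and Psmb4 at 175 and 182 FPKM. Psmb3, at 163 and 183 FPKM, had the third highest log2 fold change of the 40 genes in the authors' deposited table, 0.17 (Cuffdiff unadjusted p = 0.340). The median of these 4 genes was 0.086.

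The catalytic subunits come in pairs of a constitutive and an immune form. Each is made as a precursor and becomes active when it is cut just before a threonine, which then forms the active site. The paired genes can be set side by side from that threonine codon on. These are the 30 bases from the threonine codon (in capitals), 5′ to 3′, from GENCODE M21 transcripts on GRCm38:
Psmb5: ACCaccaccctggccttcaagtttctccat
Psmb8: ACAaccacactcgccttcaagttccagcat
Psmb6: ACCacgatcatggctgtgcagtttaatggg
Psmb9: ACAaccatcatggcagtggagtttgacggg
Psmb7: ACTaccatcgcgggggtggtgtataaggat
Psmb10: ACTaccatcgcggggcttgtgttccgagat
Identity was taken over the aligned bases of the whole coding sequence, including the part before the threonine codon, with gaps left out. Psmb8 and Psmb5 were 69.0% identical, Psmb9 and Psmb6 67.5%, and Psmb10 and Psmb7 64.8%. The longest run of identical bases between the transcripts of a pair was 18 bases for Psmb8 and Psmb5, 11 for Psmb9 and Psmb6, and 15 for Psmb10 and Psmb7. The constitutive genes Psmb5, Psmb6 and Psmb7 have 4 named pseudogenes between them in GENCODE M21, and 0 of these are listed in the authors' deposited table. Whether reads were shared between these genes and their pseudogenes was not tested.

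The 3 constitutive catalytic genes were level with each other and the 3 immune genes were not. Psmb5, the chymotrypsin-like subunit, stood at 95.9 FPKM in WT against 105 FPKM in Etv5 cKO. Psmb6, the caspase-like subunit, stood at 100 and 111 FPKM, and Psmb7, the trypsin-like subunit, at 106 and 111 FPKM. The immune form Psmb8, on mm10 chromosome 17 from 34198195 to 34201454 in the MHC region, was the highest of all 40 genes at 298 FPKM in WT against 313 FPKM in Etv5 cKO. Psmb9, 10864 bases away in the same region, stood at 151 and 156 FPKM. Psmb10, on chromosome 8 from 105935728 to 105938392, stood at 74.8 and 85.3 FPKM. The 3 immune genes thus spanned 3.98-fold in WT, against 1.10-fold for the 3 constitutive genes.

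Set against its constitutive counterpart, Psmb8 made up 75.6% of the summed FPKM of the pair in WT and 74.97% in Etv5 cKO. Psmb9 made up 60.0% of its pair in WT and 58.4% in Etv5 cKO. Psmb10 was below Psmb7, with 41.5% of the pair in WT and 43.4% in Etv5 cKO. On the log2 scale the ratio of immune to constitutive form differed between genotypes (Etv5 cKO minus WT) by -0.053 for Psmb8 over Psmb5, by -0.098 for Psmb9 over Psmb6 and by 0.11 for Psmb10 over Psmb7. These 3 differences of ratios were not all of the same sign and, without library values, could not be tested. Psmb10 had the highest log2 fold change of the 40 genes in the authors' deposited table, 0.19 (Cuffdiff unadjusted p = 0.292), while Psmb8 (0.071) and Psmb9 (0.047) lay near or under the median of all 40.

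**Figure D2:**
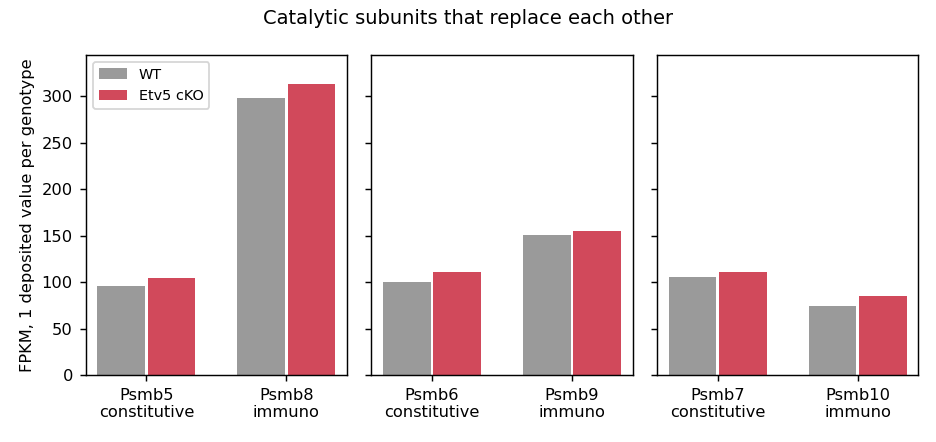
FPKM of each constitutive catalytic subunit and the immune form that replaces it, with WT in grey and Etv5 cKO in red, 1 deposited value per bar and therefore no error bars. Psmb8 stands well above Psmb5 in both genotypes (ratios of 3.11 and 2.99), Psmb9 stands above Psmb6 (1.4997 and 1.401), and Psmb10 stands below Psmb7 (0.709 and 0.765).

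In the regulatory cap, the 6 ATPases (Psmc1 to Psmc6), which form the unfolding ring, lay between 59.5 FPKM (Psmc6) and 86.3 FPKM (Psmc3) in WT and between 62.9 and 91.3 FPKM in Etv5 cKO. Their span was 1.45-fold in each genotype, by these single values narrower than that of the alpha ring. By the authors' deposited table all 6 had a higher value in Etv5 cKO, with log2 fold changes from 0.058 (Psmc2) to 0.15 (Psmc1, 64.5 and 71.6 FPKM) and a median of 0.081. The other genes of the base were the scaffold subunits Psmd1 (37.3 and 39.4 FPKM) and Psmd2 (80.1 and 84.0 FPKM) and the ubiquitin receptor Psmd4 (88.0 and 91.8 FPKM).

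The lid, which holds the enzyme that removes ubiquitin chains from substrates, had the only 2 genes of the 40 with a lower deposited value. In the authors' deposited table Psmd6 stood at 51.9 FPKM in WT against 50.97 FPKM in Etv5 cKO (log2 fold change -0.026, Cuffdiff unadjusted p = 0.896), and Psmd7 at 47.2 and 46.6 FPKM (-0.021, unadjusted p = 0.907). Psmd7 is the partner of Psmd14, the ubiquitin-removing enzyme, which stood at 79.5 and 81.4 FPKM. The other lid genes were Psmd3 (53.7 and 56.7 FPKM), Psmd8 (90.9 and 96.4 FPKM), Psmd11 (57.6 and 58.1 FPKM), Psmd12 (41.6 and 43.0 FPKM) and Psmd13 (60.1 and 63.8 FPKM). The median log2 fold change of the 8 lid genes was 0.040, against 0.069 for the 3 non-ATPase genes of the base. Psmd5 and Psmd9 are chaperones that help to build the base and leave the finished particle, and they were among the 3 lowest of the 40 genes, with Psmd5 at 29.3 and 29.7 FPKM. Psmd9 was the lowest at 10.02 and 11.4 FPKM, and its deposited log2 fold change of 0.19 became 0.13 with a pseudocount of 5 FPKM.

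The activator caps had the lowest median log2 fold change of the groups, 0.023 over 4 genes. Psme1 and Psme2 encode PA28alpha and PA28beta, which form 1 mixed ring and are induced by interferon gamma. They are neighbours on GRCm38 chromosome 14, Psme1 from 55578494 to 55581527 and Psme2 from 55587440 to 55591101 in RefSeq, and were, after Psmb8, the highest of the 40 genes. Psme1 stood at 229 FPKM in WT against 232 FPKM in Etv5 cKO, and Psme2 at 218 and 225 FPKM, a ratio of 1.05 in WT and 1.03 in Etv5 cKO. Their deposited log2 fold changes were 0.021 and 0.044, and with quantile normalization that of Psme1 was -0.042 and the median of the pair -0.0085. Psme3, which encodes the nuclear PA28gamma, stood at 80.0 and 81.2 FPKM (0.022), and Psme4, which encodes PA200, at 19.1 and 19.5 FPKM (0.025). Psme2 has a near-identical retrocopy on chromosome 11, Psme2b: in GENCODE M21 the coding sequences agree at 715 of 720 bases (99.3%), and the transcripts share a run of 341 identical bases. Psme2b was listed at 13.7 and 13.8 FPKM, and how reads common to both genes were divided is not stated.

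**Figure D3:**
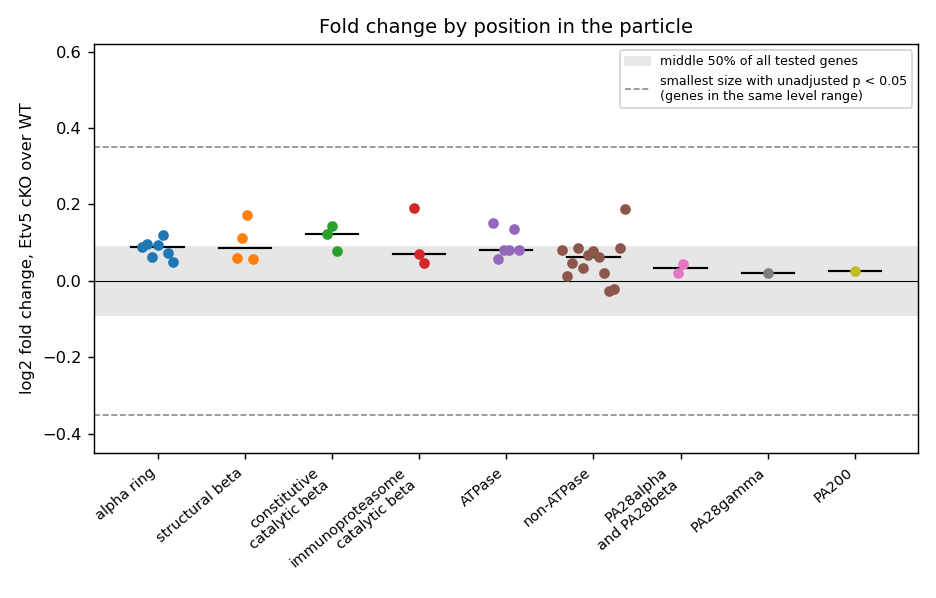
Deposited log2 fold change (Etv5 cKO over WT) of each of the 40 genes by place in the particle, with the median of each group as a black bar, the middle 50% of all tested genes as a grey band (-0.088 to 0.088) and dashed lines at 0.35, the smallest size with an unadjusted p below 0.05 in the same level range. All 40 genes lie within the dashed lines and 38 lie above 0 (37 with quantile normalization).

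By group, the median log2 fold change was highest for the constitutive catalytic genes, at 0.12. The groups overlapped, and no difference between groups was tested, since genes are not replicates. Across the 40 genes, which share the same libraries, the log2 level in WT and the log2 fold change had a Pearson r of -0.031 and a Spearman rho of 0.086, given as a description.

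Other genes of the pathway were read from lists of symbols. Factors that build or restrain the particle differed in both directions: by the authors' deposited table, 4 of 7 tested genes had a higher and 3 a lower value in Etv5 cKO (median log2 fold change 0.034), with 0 called by Cuffdiff and 0 below an unadjusted p of 0.05. Pomp, the maturation factor of the core, was the most abundant at 160 FPKM in WT against 174 FPKM in Etv5 cKO. Psmg1 (26.8 and 30.7 FPKM) and Psmg3 (14.7 and 16.0 FPKM), chaperones of the alpha ring, had the highest log2 fold changes, 0.20 and 0.13. Their partners Psmg4 (29.6 and 27.1 FPKM) and Psmg2 (34.02 and 33.3 FPKM) had the lowest, -0.13 and -0.029.

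Among 14 further parts and bound factors 6 had a higher and 8 a lower value (median log2 fold change -0.046), with 0 called by Cuffdiff or below an unadjusted p of 0.05. The lid subunit Shfm1 had the highest log2 fold change, 0.12. The lowest deposited log2 fold changes were those of Ubqln4, a shuttle that carries ubiquitinated proteins (19.5 and 17.8 FPKM, -0.13) and of AI314180, which encodes a scaffold that ties the cap to the core (23.5 and 21.7 FPKM, -0.11). Adrm1, a ubiquitin receptor of the base, stood at 53.9 and 54.5 FPKM. Psma8 and Psmb11, the subunits of testis and thymic epithelium, were at 0.0560 and 0.0540 FPKM in WT and were not tested.

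For the regulators of proteasome genes the median log2 fold change was -0.021, with 3 of 8 higher, 5 lower, 0 called and 0 below an unadjusted p of 0.05 in the authors' deposited table. Nfe2l1, the transcription factor that raises proteasome gene expression when the proteasome is blocked, stood at 27.7 and 26.3 FPKM. Its activators are the protease Ddi2 (20.4 and 19.3 FPKM, -0.085) and the deglycosylase Ngly1 (33.5 and 27.8 FPKM, -0.27). In the authors' deposited table Maff, a small partner of this factor, had the highest log2 fold change at 0.66, from 1.70 to 2.68 FPKM (Cuffdiff unadjusted p = 0.0829), followed by Mafk at 0.10 (20.5 and 22.0 FPKM).

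On the interferon side, Ifng itself fell, at 29.8 FPKM in WT against 14.5 FPKM in Etv5 cKO (the authors' deposited log2 fold change was -1.04, Cuffdiff adjusted p = 0.0181). It was the 1 called gene of 14, and the 1 with an unadjusted p below 0.05; 6 had a higher and 8 a lower value (median log2 fold change -0.0057). The receptor genes Ifngr1 (42.4 and 52.1 FPKM, 0.30) and Ifngr2 (6.34 and 7.64 FPKM, 0.27) had the highest log2 fold changes. After Ifng the lowest was Nlrc5, the transactivator of MHC class I genes, at 72.7 and 66.2 FPKM (-0.14). Irf1, a transcription factor induced by interferon gamma, stood at 113 and 106 FPKM and was not called. Tap1, the peptide transporter gene that shares a promoter region with Psmb9, stood at 154 and 153 FPKM, beside 151 and 156 FPKM for Psmb9.

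Ubiquitin genes, the activating and conjugating enzymes and the unfoldase Vcp formed the last list. By the authors' deposited table, 8 of 10 tested genes had a higher and 2 a lower value, with a median of 0.056 on the log2 scale (-0.0049 with quantile normalization), 0 called and 0 below an unadjusted p of 0.05. The conjugating enzyme Ube2l3 (82.7 and 91.2 FPKM, 0.14) and Ufd1l, a cofactor of Vcp (33.1 and 35.6 FPKM, 0.11), were highest. The conjugating enzyme Ube2d3 (260 and 251 FPKM, -0.054) was 1 of the 2 with a lower value, and Vcp stood at 171 and 175 FPKM.

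**Figure D4:**
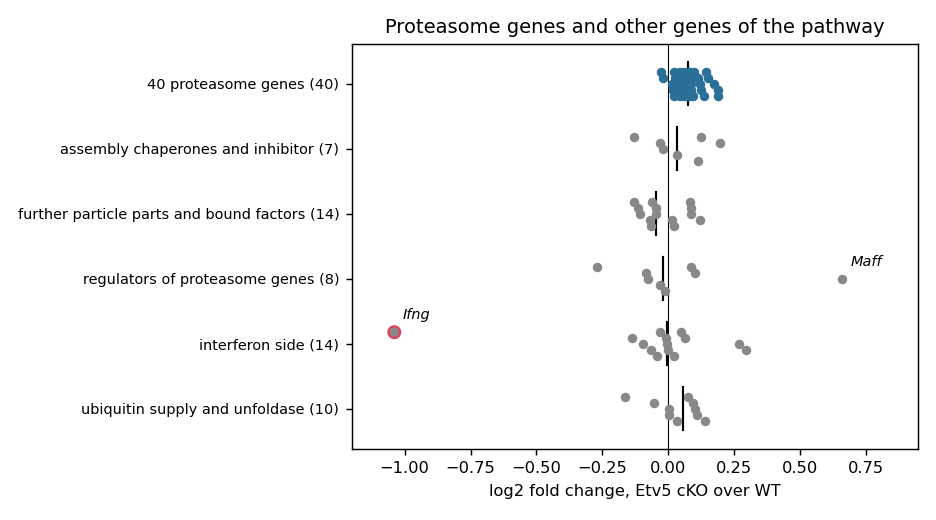
Deposited log2 fold change (Etv5 cKO over WT) of the 40 proteasome genes in blue and of the tested genes of 5 further lists in grey, with the number of genes in brackets, a black bar at each median and a red ring around a called gene. The 40 genes lie between -0.026 and 0.19, and Ifng at -1.04 is the single called gene.

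Since Etv5 is an ETS factor, the promoters of the 40 genes were read for the core of the ETS binding motif, CCGGAAG, on both strands. RefSeq promoter windows of GRCm38.p6, from 250 bases before to 50 bases after the gene start, matched 34 of the 40 genes. The ETS core was in a window of 12 of these 34 genes (35.3%), against 9.93% of all 27025 symbols with a window and 21.4% of the tested genes with one. The 12 genes were Psma6, Psmc1, Psmc2, Psmc6, Psmd2, Psmd4, Psmd6, Psmd11, Psmd12, Psmd13, Psme3 and Psme4, which are 1 of 7 alpha genes with a window, 3 of 5 ATPase genes, 6 of 11 non-ATPase genes, 2 of 4 activator genes and 0 of 7 beta genes. Their median log2 fold change was 0.060 (from -0.026 to 0.15), and that of the 22 genes without the core was 0.083 (from 0.020 to 0.19). Over all tested genes with a window, the median was -0.0031 with the core and -0.0024 without. Cuffdiff called 1 of the 1881 tested genes with the core and 27 of the 6898 without, a difference that was not tested. The share of genes with the core was not computed for the level range of the 40 genes.

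2 of these windows are shown, 5′ to 3′ along the gene, with the ETS core or its complement in capitals, for lid genes at different distances from the start: Psmd6, the gene with the lowest fold change of the 40, holds it at -45 from the gene start, and Psmd12 (deposited log2 fold change 0.046) at -17 on the opposite strand.
Psmd6 (GRCm38.p6 chr14:14120896-14121195, minus strand): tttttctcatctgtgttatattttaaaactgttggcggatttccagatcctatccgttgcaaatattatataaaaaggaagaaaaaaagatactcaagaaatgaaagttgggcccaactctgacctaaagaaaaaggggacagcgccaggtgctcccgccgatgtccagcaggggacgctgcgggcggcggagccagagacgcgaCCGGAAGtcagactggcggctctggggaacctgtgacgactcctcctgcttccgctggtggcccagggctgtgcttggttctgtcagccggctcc
Psmd12 (GRCm38.p6 chr11:107479278-107479577, plus strand): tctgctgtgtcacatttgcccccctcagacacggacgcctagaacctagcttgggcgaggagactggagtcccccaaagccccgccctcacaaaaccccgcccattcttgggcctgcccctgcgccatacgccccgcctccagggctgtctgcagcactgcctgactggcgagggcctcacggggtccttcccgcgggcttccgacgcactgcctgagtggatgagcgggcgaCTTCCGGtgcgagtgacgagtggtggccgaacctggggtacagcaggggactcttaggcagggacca
A match is a stretch of letters and does not show that a factor binds there.

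The same windows were read on both strands for motifs known from interferon and stress responses. The interferon-stimulated element GAAANNGAAA was in 4 of the 34 genes (11.8%; 3.99% of all symbols), which were Psmb3, Psmd4, Psmd9 and Psme1. The gamma-activated site TTCNNNGAA was in 2 of 34 (5.88%; 9.55% of all symbols), Psmb8 and Psmd2. The antioxidant element TGACNNNGC, to which Nfe2l1 and Nfe2l2 bind, was in 6 of 34 (17.6%, against 13.99% of all symbols). These were Psmb5, Psmb6, Psmc6, Psmd9, Psmd12 and Psme4. The CCAAT box was in 12 of 34 (35.3%, against 41.1% of all symbols). Median log2 fold changes with and without the motif were 0.10 and 0.070 for the antioxidant element and 0.12 and 0.072 for the interferon-stimulated element. They were 0.070 and 0.076 for the gamma-activated site and 0.062 and 0.080 for the CCAAT box. The genes with the antioxidant element ran from 0.025 to 0.19, and no difference between these medians was tested. For these motifs the share among tested genes was not computed, and all symbols include genes that were not tested. For the ETS core the share was 21.4% of tested genes against 9.93% of all symbols, so all symbols are not a like set for the 34 genes. Matches of different motifs did not overlap in these windows. The windows of Psme1 and Psmb8, the 2 highest genes of the 40, are shown with these matches in capitals, the interferon-stimulated element of Psme1 (opposite strand, from 9 bases after the gene start) and the gamma-activated site of Psmb8 (at -97).
Psme1 (GRCm38.p6 chr14:55578244-55578543, plus strand): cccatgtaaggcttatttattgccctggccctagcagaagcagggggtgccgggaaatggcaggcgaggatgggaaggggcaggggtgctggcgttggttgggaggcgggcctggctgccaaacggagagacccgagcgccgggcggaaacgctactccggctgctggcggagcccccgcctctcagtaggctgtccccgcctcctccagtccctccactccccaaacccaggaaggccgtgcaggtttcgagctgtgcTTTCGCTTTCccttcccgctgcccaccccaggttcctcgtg
Psmb8 (GRCm38.p6 chr17:34197945-34198244, plus strand): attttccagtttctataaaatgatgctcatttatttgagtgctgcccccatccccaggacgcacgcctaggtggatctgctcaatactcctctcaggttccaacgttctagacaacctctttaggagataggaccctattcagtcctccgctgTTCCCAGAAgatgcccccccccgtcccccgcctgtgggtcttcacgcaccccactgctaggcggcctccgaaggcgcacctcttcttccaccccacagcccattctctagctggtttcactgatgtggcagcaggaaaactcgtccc
Both genes had small differences between genotypes, with deposited log2 fold changes of 0.021 for Psme1 (-0.042 with quantile normalization) and 0.071 for Psmb8. Ifng fell by 1.04 on the log2 scale in the authors' deposited table, and any link between Ifng and the levels of these 2 genes was not tested.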

How the data were processed

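The 4 libraries, from sorted TFH cells of mouse spleen, were prepared with a stranded mRNA kit, per the labels. Tools named in the submitters' processing notes are TopHat2 (2.0.13) and Cuffdiff (2.2.0), with mm10 as the build; annotation release, strand setting and scaling between libraries are not stated. The authors' deposited table has a Cuffdiff layout per the file headers: FPKM per genotype, the log2 fold change (Etv5 cKO over WT, no pseudocount), a fold ratio, a score, and p-values before and after adjustment. How the libraries of a genotype were combined into 1 FPKM value is not stated. Of 23996 genes 11569 were tested by the authors; 1 emptied line was not analysed here. FPKM depends on what else a library holds, and gives no depth.

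The authors' test was used as deposited, with a call at an adjusted p below 0.05. Medians, counts and ratios were computed from the deposited values without a filter or pseudocount. Start positions were made 1-based by adding 1. Further lists were matched by symbol, with alternative symbols from RefSeq; Paaf1 and Ighm were not matched. The 40 genes, the lists, the motifs and the named genes were chosen with earlier results of these data known. Named by rule were all 40 genes and, in each further list, the called genes and the 2 highest and 2 lowest fold changes, of which some are not reported here; other genes in the lists, and the promoters shown, were chosen after their values were seen. Promoter windows came from RefSeq (GRCm38.p6) and transcripts from GENCODE M21; open reading frames were the longest per transcript, aligned globally with Biopython 1.88. Adjustment and quantile normalization were tested on simulated data. Python 3.11.15 was used with pandas 2.3.3, and figures were drawn with matplotlib 3.10.9. Alternatives were other thresholds and adjustments, a filter at 5 FPKM, pseudocounts of 1 and 5 FPKM, median centring, quantile normalization and rows with a single gene.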

Additional observations from a re-analysis of the deposited data

How the results depend on the processing

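No paired analysis was possible because the deposited table holds 1 value per genotype and none per library; leaving out each library was not run for the same reason. Cuffdiff called 0 of the 40 genes in either direction at an adjusted p below 0.1, with adjustment over every listed gene, among genes of at least 5 FPKM, and at an unadjusted p below 0.05. Over all genes 40 were called, 32 with adjustment over every listed gene and 21 among the 8647 tested genes of at least 5 FPKM. The count of genes with a higher value was 37 or 38 of 40 under every scaling and pseudocount, and 36 of 38 without Psma6 and Psme2, an alternative chosen after seeing the data. The median log2 fold change of the 40 genes ran from 0.060 (quantile normalization) to 0.079 (median centring). With quantile normalization the ubiquitin and unfoldase list had a median of -0.0049 in place of 0.056, and Psme1 changed sign; the cause was not tested. Of 225 alternative values 222 moved by less than 0.05 on the log2 scale or kept their count within 1.5 times. This limit is wide for such small values, since 12 of the 40 genes had a log2 fold change below 0.05. Within it, quantile normalization took the median of Psme1 and Psme2 from 0.033 to -0.0085. It took that of the immune catalytic genes from 0.071 to 0.036. The setting of rows with a single gene could change nothing for the 40 genes, as 0 of their rows held 2 or more symbols.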
